A study of Mus musculus with 24 samples.

Results

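The 10 transcripts described here encode 5 annexins (Anxa1, Anxa2, Anxa3, Anxa5 and Anxa6) and 5 S100 proteins (S100a1, S100a4, S100a6, S100a10 and S100a11). They were taken by gene symbol, were read by 14 of the 45281 probes of the array, and were 10 of the 12011 genes with a named probe detected on 3 or more of the 24 arrays. In the hearts of 24-week-old mice of the severe MHC-CELFΔ line, 5 of the 10 were higher than in wild type, where 8.26% of all genes were, and the largest of these differences was that of Anxa3, at 2.72-fold. At the same age 0 of the 10 passed the test in the mild line, where 0.425% of all genes were higher. At 3 weeks Anxa3 and S100a10 were higher in the severe line, as were 2.66% of all genes, and 0 members passed as lower in any of the 10 comparisons made. A difference passed, or was called, at an adjusted p under 0.05 in limma, a linear model fitted to all 24 arrays, with the Benjamini-Hochberg adjustment over the 12011 genes. Values are log2 of the quantile-normalized intensity, and a difference of 1 on this scale is 2-fold.

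Annexins bind to membranes that hold acidic phospholipids when calcium rises, and in muscle they gather at sites where the surface membrane is injured. S100 proteins are small EF-hand proteins that work as dimers and, once loaded with calcium, bind other proteins. Some members work together: S100a10, which no longer binds calcium, forms a complex with Anxa2, and S100a11 binds Anxa1.

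Illumina MouseWG-6 v2 arrays were hybridized with total RNA of whole hearts from female FVB/N mice, 1 array per mouse. MHC-CELFΔ mice are hemizygous for a transgene driven in heart muscle by the promoter of α-myosin heavy chain, whose product is nuclear and acts as a dominant negative against CELF proteins. These proteins regulate alternative splicing. The series holds a low-expressing line, called mild, and a high-expressing line, called severe, with 4 wild type, 3 mild line and 3 severe line mice at 3 weeks and 4 wild type, 5 mild line and 5 severe line mice at 24 weeks. Wild type mice were littermates without the transgene, 2 from each line at each age, and served as the controls of both lines. Severity is represented by 1 line each, so severity and line cannot be told apart. Whole hearts hold muscle cells, fibroblasts, vessels and blood-derived cells, and in such RNA more cells of a type and more RNA per cell cannot be told apart.

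The arrays detected 32% to 44.4% of their probes, and their median raw intensity was 64.3 to 123.4. They fell into 2 sets of 12 by the lowest raw intensity, at 54.2 to 62.8 and at 38.9 to 47.2, and each of the 6 groups had arrays in both sets. The higher set held 2 arrays of each group. At 3 weeks the lower set held 1 array of the mild line and 1 of the severe line. The sets were the samples numbered 1 to 12 and 13 to 24 in the sample titles, and the labels do not say what else they are. Among wild type mice the set went with the litter: at 3 weeks the higher set held litters of the severe line and the lower set those of the mild line, and at 24 weeks the reverse. Values within a set, and values against wild type mice of the same line, therefore change set and litter together, and these cannot be told apart. Muscle was present as labelled, with 9 of 10 cardiomyocyte markers among the genes tested. Markers of lung stood apart on 3 arrays: the summed intensity of the 2 lung markers tested, Scgb1a1 and Sftpd, was 5905 in wild type replicate 3 at 3 weeks, 10704 in mild line replicate 4 and 4006 in severe line replicate 4 at 24 weeks, and 169 to 425 on every other array. Sftpa1, Sftpb and Sftpc were each detected on fewer than 3 arrays. With these 3 arrays left out, a fit chosen after the data were seen, 4 members were higher in the severe line at 24 weeks and 1 at 3 weeks, and their part in the results of the members was not further tested. The array of severe line replicate 5 at 24 weeks stood apart, with a mean correlation of 0.9555 with its own group against 0.9752 or more for each other array. For the members, some results that include any of these 4 arrays are given with and without them. For other genes and for the marker sums the values are given with these arrays only. Where a count of members under a changed setting stands without the share of all genes, it describes that setting only.

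RefSeq promoter sequences, 250 bases before and 50 after the start of a gene, were available for 7 of the 10 members. The bases before the start are shown for 4 of the 5 members that were higher in the severe line at 24 weeks, so that the sequence can be read beside the values; none was listed for Anxa3. Capitals mark the AP-1 site (searched as TGANTCA) and the TATA box (searched as TATAAA), on both strands of all 300 bases. All are from mouse build GRCm38.p6, 5′ to 3′ along the strand of the gene.
Anxa2 (chr9:69453433-69453682, plus strand): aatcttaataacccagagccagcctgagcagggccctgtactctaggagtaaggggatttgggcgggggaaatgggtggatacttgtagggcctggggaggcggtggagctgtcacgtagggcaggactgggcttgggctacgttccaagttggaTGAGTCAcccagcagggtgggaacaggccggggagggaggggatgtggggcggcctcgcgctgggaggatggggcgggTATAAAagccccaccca
Anxa5 (chr3:36475888-36476137, minus strand): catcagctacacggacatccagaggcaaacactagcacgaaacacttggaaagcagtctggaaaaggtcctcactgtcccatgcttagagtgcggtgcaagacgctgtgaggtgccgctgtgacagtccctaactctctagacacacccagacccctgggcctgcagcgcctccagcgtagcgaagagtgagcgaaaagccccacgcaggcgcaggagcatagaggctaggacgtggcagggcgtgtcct
S100a4 (chr3:90603520-90603769, plus strand): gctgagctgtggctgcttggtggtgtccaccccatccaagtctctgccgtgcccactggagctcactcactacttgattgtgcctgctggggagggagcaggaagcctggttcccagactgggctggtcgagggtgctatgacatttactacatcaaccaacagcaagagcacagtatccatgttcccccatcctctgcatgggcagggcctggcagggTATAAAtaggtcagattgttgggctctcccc
S100a11 (chr3:93520246-93520495, plus strand): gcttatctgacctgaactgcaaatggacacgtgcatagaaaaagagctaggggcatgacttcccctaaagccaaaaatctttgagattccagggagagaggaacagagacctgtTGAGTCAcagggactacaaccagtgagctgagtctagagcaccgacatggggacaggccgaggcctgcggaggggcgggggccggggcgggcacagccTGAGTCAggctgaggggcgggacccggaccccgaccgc

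The AP-1 letters stood at 95 to 89 bases before the start of Anxa2 and in S100a11 at 136 to 130 and again at 38 to 32 bases before it. They were found in 2 of the 7 member promoters and in 7.81% of all 32851 promoters of the table. TATAAA was found in Anxa1, Anxa2 and S100a4 and in 13.6% of all promoters. GGGCGG, a GC box, was found 3 times each in Anxa2 and S100a11 and in 35.7% of all promoters, and GGAATG, a TEAD site, in Anxa1 and in 14.7%. A CArG box, the sequence bound by serum response factor, was found in 1 member promoter, that of Anxa5, and in 1.63% of all promoters. It lies 26 to 35 bases after the start, in capitals in the stretch shown here.
Anxa5, bases 16 to 45 after the start (chr3:36475843-36475872, minus strand): cgggctgggaCCTAATTAGGgaggtggcca
These matches are letters in a window and no measure of binding.

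Anxa3 binds phospholipids and is made by myeloid cells as well as other cells of the heart. Its log2 values at 24 weeks were 9.89, 9.98, 9.75 and 9.63 in wild type, 9.63, 9.84, 10.08, 9.82 and 9.74 in the mild line, and 11.23, 11.13, 11.65, 10.98 and 11.28 in the severe line. Every severe line array lay above every wild type and every mild line array, with a clear gap between them. The difference of the severe line from wild type was 1.44 on the log2 scale (SE 0.14, 95% interval 1.15 to 1.74, limma adjusted p = 2.16e-07, n = 5 and 4), with each of the 5 severe line arrays higher. It was called under all 17 other ways of processing and with any 1 array of these groups left out. It was 1.51 without the arrays of high lung markers. Within the arrays of higher background it was 1.24 and within those of lower background 1.62.

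The second probe of Anxa3 gave the same picture at 24 weeks. Its values at 24 weeks were 9.43, 9.44, 9.31 and 8.99 in wild type and 10.6, 10.67, 11.21, 10.35 and 10.57 in the severe line. The 2 groups did not overlap, and the difference was 1.39 (SE 0.15, limma adjusted p over 18907 probes = 1.15e-06). On both probes the mild line arrays at 24 weeks overlapped the wild type arrays.

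Anxa2, a major partner of S100a10 at the inner face of the plasma membrane, had values of 12.13, 12.15, 11.83 and 12.17 in wild type, 12.01, 12.02, 12.11, 12.17 and 12.13 in the mild line and 12.77, 12.87, 13, 12.96 and 12.18 in the severe line at 24 weeks. The severe line arrays again all lay above those of wild type, but replicate 5, at 12.18, barely did so. The difference from wild type was 0.68 (SE 0.13, 95% interval 0.42 to 0.95, limma adjusted p = 5.75e-04), or 1.61-fold. Without severe line replicate 5 it was 0.83 (limma adjusted p = 1.87e-06). In the set of higher background it was 0.68, and in that of lower background 0.71, where it did not pass (limma adjusted p = 0.144). It did not pass either where raw values were only scaled to a common median (0.65, limma adjusted p = 0.0675).

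The second Anxa2 probe did not show this difference. It is annotated to the record of a cDNA clone and not to the RefSeq transcript of the gene, and it was detected on all 24 arrays. Its values at 24 weeks were 7.73, 7.04, 8.18 and 7.45 in wild type and 7.63, 7.85, 8.08, 7.58 and 7.33 in the severe line. The groups overlapped fully, the difference was 0.09 (SE 0.18, limma adjusted p over all probes = 0.847), and with both probes averaged the difference of Anxa2 was 0.39 (limma adjusted p = 0.0312). Statements on Anxa2 refer to the brighter probe unless they say otherwise.

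**Figure D1:**
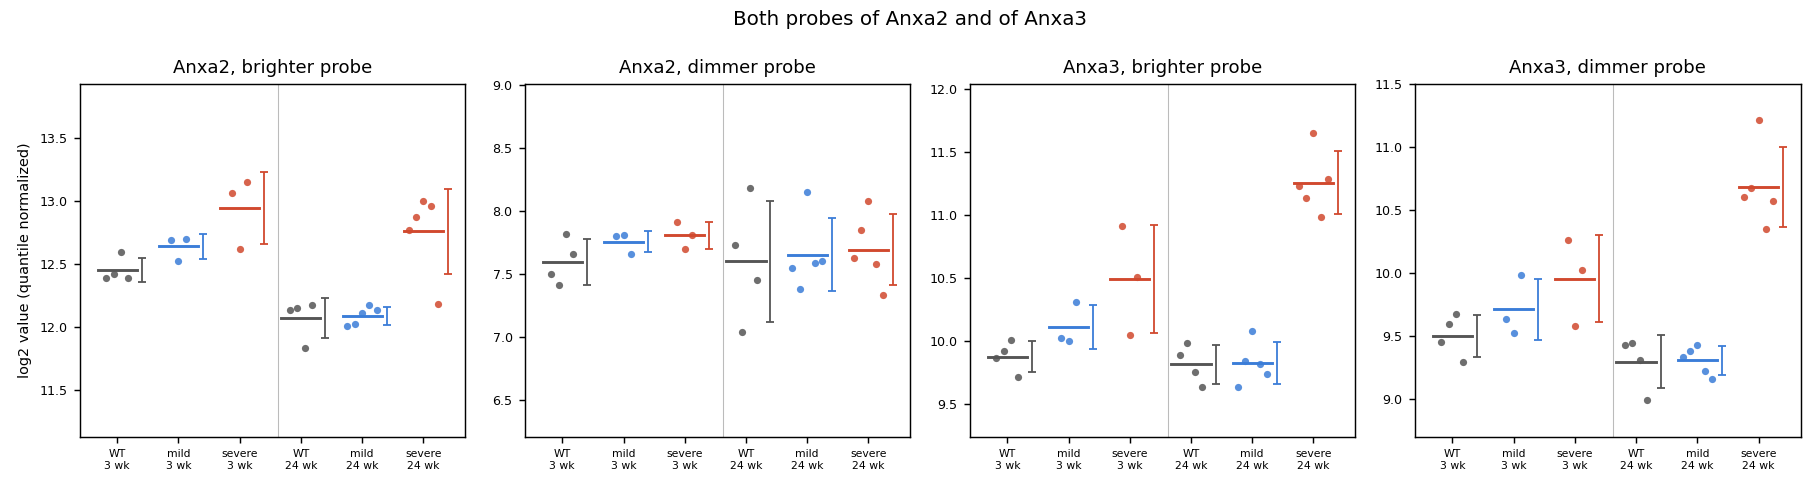
Log2 values (vertical axis, quantile normalized) of the brighter and the dimmer probe of Anxa2 and of Anxa3 in the 6 groups, wild type (WT), mild and severe line at 3 and 24 weeks (wk); each point is an array, the horizontal bar the group mean and the bracket beside it 1 SD on each side. Both Anxa3 probes separate the 5 severe line hearts at 24 weeks from all others of that age (differences from wild type of 1.44 and 1.39), whereas the dimmer Anxa2 probe, with a difference of 0.09, does not follow the brighter one.

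Anxa5, which binds phosphatidylserine and is widely used to stain dying cells, had values of 10.12, 10.39, 9.9 and 10.21 in wild type, 10.63, 10.46, 10.35, 10.39 and 10.33 in the mild line and 10.75, 10.88, 11.04, 10.93 and 11.46 in the severe line at 24 weeks. The severe line arrays lay above all others of that age, and the mild line arrays overlapped the upper end of wild type. The severe line exceeded wild type by 0.86 (SE 0.16, 95% interval 0.52 to 1.19, limma adjusted p = 5.36e-04), or 1.81-fold, and by 0.74 without replicate 5 (limma adjusted p = 0.00115). It was 0.56 within the arrays of higher background, where it did not pass (limma adjusted p = 0.214), and 1.09 within those of lower background.

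Anxa1, an annexin with anti-inflammatory actions, and Anxa6, an annexin abundant in heart muscle, did not pass the test in the severe line at 24 weeks. For Anxa1 the values were 6.8, 7.17, 7.01 and 7.11 in wild type and 7.2, 7.09, 7.03, 7.03 and 7.64 in the severe line, so that the groups overlapped and replicate 5 was the highest of all arrays. The difference was 0.17 (95% interval -0.05 to 0.4), and 0.06 without replicate 5. Anxa6 ranged from 10.63 to 11.4 in wild type and from 10.24 to 11.13 in the severe line, with replicate 5 the lowest, and the difference was -0.16 (95% interval -0.52 to 0.2). The other 2 Anxa6 probes, both annotated to cDNA clone records, gave -0.16 and -0.17, and 1 of them was detected on 5 arrays only.

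Among the S100 transcripts at 24 weeks, S100a11, the partner of Anxa1 at membranes, differed most. Its values were 10.1, 10.84, 10.14 and 10.13 in wild type, 10.33, 10.05, 10.19, 10.15 and 10.26 in the mild line and 10.86, 11.26, 11.6, 11.11 and 11.81 in the severe line. The lowest severe line array lay just above the highest wild type array, replicate 2, which stood apart from the other 3. The difference of the severe line from wild type was 1.03 (SE 0.20, 95% interval 0.6 to 1.45, limma adjusted p = 9.34e-04), or 2.04-fold, and 0.91 without severe line replicate 5 (limma adjusted p = 0.00216). Within the arrays of higher background it was 0.59 and did not pass (limma adjusted p = 0.295), and within those of lower background it was 1.37.

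S100a4, known from fibroblasts and motile cells, was dim. It was detected on 19 of 24 arrays, among them 2 of 4 wild type and all 5 severe line arrays at 24 weeks. Its values were 6.69, 6.85, 6.49 and 6.88 in wild type, 6.48, 6.75, 6.75, 6.78 and 6.88 in the mild line and 7.15, 7.01, 6.85, 7.37 and 7.37 in the severe line. The groups overlapped in 1 severe line array, and the difference from wild type was 0.42 (SE 0.12, 95% interval 0.17 to 0.68, limma adjusted p = 0.0183). Leaving out wild type replicate 1 or 3 or severe line replicate 4 ended the call (limma adjusted p up to 0.0867), and it did not pass within either background set. Severe line replicate 4, at 7.37, is an array of high lung markers, and without those arrays the difference was 0.37 (limma adjusted p = 0.0696). With background subtracted from the raw intensities the difference was 0.95 (limma adjusted p = 0.014), so the size of this change moved with the treatment of background.

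S100a6, or calcyclin, a marker of proliferating and mesenchymal cells, was spread widely within groups. It read 9.34, 9.79, 9.19 and 10.47 in wild type and 10.17, 10.06, 9.77, 10.86 and 10.83 in the severe line at 24 weeks. The groups overlapped, and the difference of 0.64 (95% interval 0.08 to 1.21) did not pass (limma adjusted p = 0.127). Without wild type replicate 4, the array at 10.47, it was 0.9 and passed (limma adjusted p = 0.0273). Over the 9 arrays left out in turn it was 0.47 to 0.9, and it did not pass in 8 cases (limma adjusted p up to 0.362).

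S100a10, the partner of Anxa2, read 9.16, 9.67, 8.93 and 9.29 in wild type and 9.45, 9.8, 9.31, 9.75 and 9.56 in the severe line at 24 weeks. The groups overlapped, and the difference of 0.31 (95% interval 0.07 to 0.55) did not pass (limma adjusted p = 0.0701). Without wild type replicate 2, the array at 9.67, it was 0.45 and passed (limma adjusted p = 0.00407). Over the 9 arrays left out in turn it was 0.2 to 0.45, and it did not pass in 7 cases (limma adjusted p up to 0.303). S100a1, the S100 protein of heart muscle cells that acts on the calcium release channel and the calcium pump, ranged from 12.04 to 12.98 in wild type and from 11.99 to 13.59 in the severe line. Its difference was 0.1 (95% interval -0.41 to 0.61), and -0.17 without replicate 5, the array at 13.59.

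**Figure D2:**
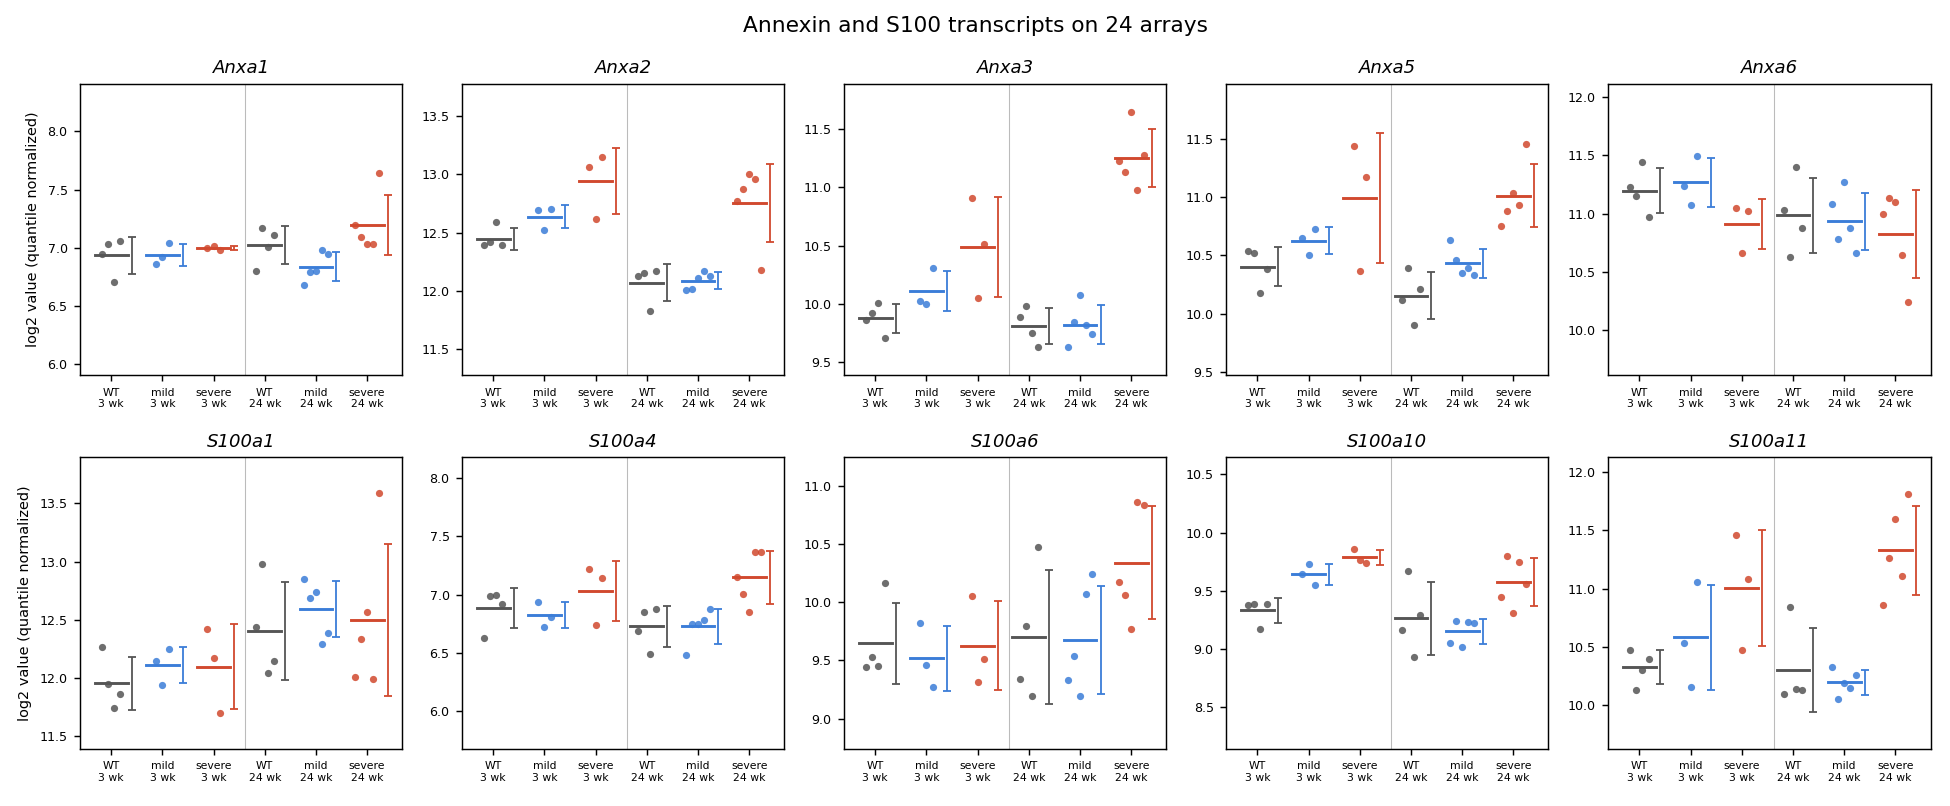
Log2 values (vertical axes, quantile normalized, each spanning the same range) of the 10 transcripts in the 6 groups, wild type (WT), mild and severe line at 3 and 24 weeks (wk); each point is an array, the horizontal bar the group mean and the bracket beside it 1 SD on each side. The severe line arrays at 24 weeks, at 10.98 to 11.65 for Anxa3, stand clear of wild type for Anxa3, whereas for S100a1, Anxa6 and S100a6 the groups overlap.

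Counted over the 10 members, 5 were higher and 0 lower in the severe line at 24 weeks, where 8.26% of all 12011 genes were higher. Over all genes 992 were higher and 879 lower, and 909 and 200 with raw log2 values scaled to a common median, a setting under which the median of all genes moved to 0.08. With the further demand of a 2-fold change, Anxa3 and S100a11 passed, as did 1.02% of all genes. All 5 severe line arrays lay above all 4 wild type arrays for 4 members, Anxa2, Anxa3, Anxa5 and S100a11, and for 6.49% of all genes. The median difference of the 10 members was 0.53, and that of all genes was 0. Shares of all genes called under the settings that follow are not given here. Without severe line replicate 5 the count was again 5 and the median 0.44. Without the 3 arrays of high lung markers the count was 4, since S100a4 no longer passed, and the median 0.44. In the set of higher background 2 members passed (Anxa2 and Anxa3), and in that of lower background 3 (Anxa3, Anxa5 and S100a11).

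**Figure D3:**
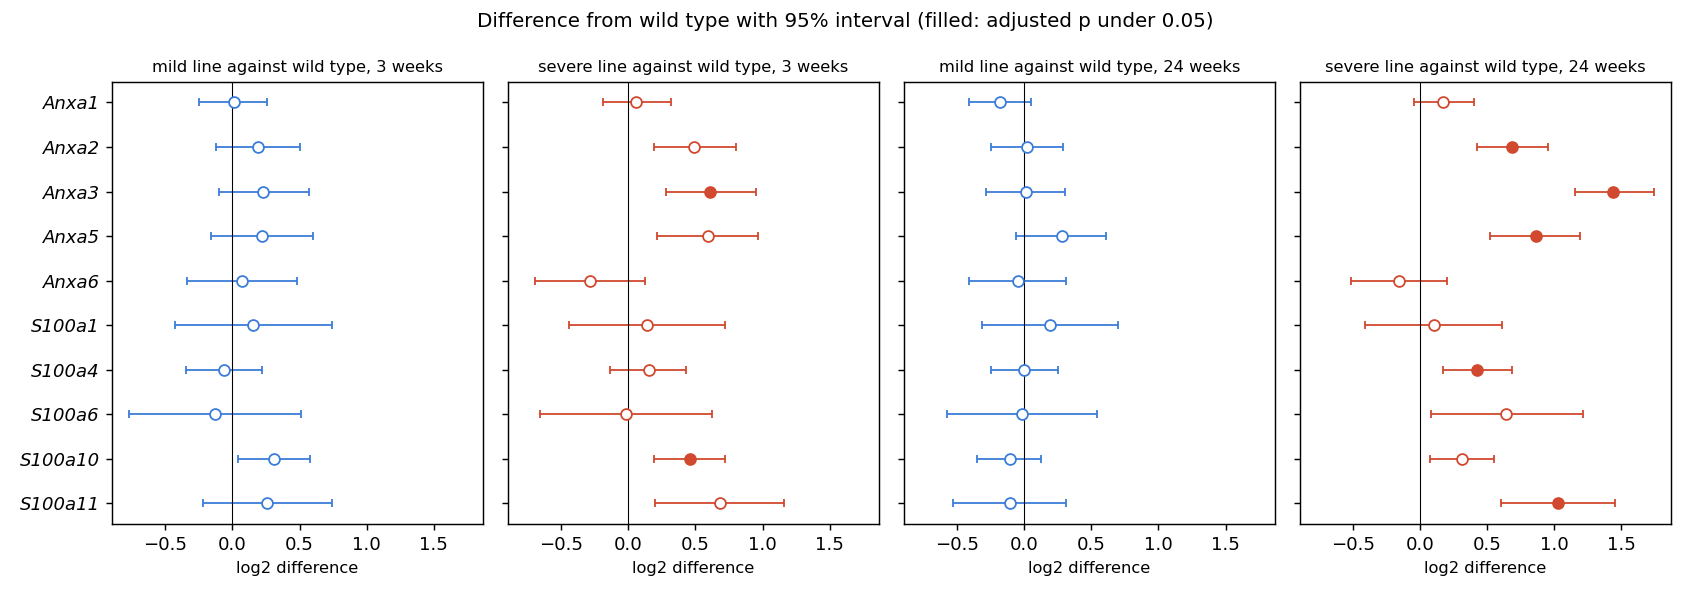
Log2 difference from wild type (horizontal axis) of each transcript in 4 panels, the mild and severe line at 3 and at 24 weeks; points are limma estimates, bars their 95% intervals, and filled points passed an adjusted p under 0.05. In the panel of the severe line at 24 weeks 5 points are filled, up to 1.44 for Anxa3, in that of the severe line at 3 weeks 2, and in both panels of the mild line 0.

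In the mild line at 24 weeks 0 of 10 members passed, against 0.425% of all genes that were higher, and the median difference was -0.01. The largest was that of Anxa5, at 0.28 (95% interval -0.06 to 0.61, limma adjusted p = 0.792). For Anxa3 the interval of the mild line was -0.29 to 0.3 and for S100a11 -0.53 to 0.31.

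Set directly against the mild line at 24 weeks, the severe line was higher for 7 members, against 5.94% of all genes. These were Anxa3 by 1.44 (SE 0.13, limma adjusted p = 2.50e-07), S100a11 by 1.13 (limma adjusted p = 3.76e-04), Anxa2 by 0.67, Anxa5 by 0.58, S100a4 by 0.43, S100a10 by 0.42 and Anxa1 by 0.36 (limma adjusted p = 0.0257). For 6 of them, all but S100a4, every severe line array lay above every mild line array, as for 4.56% of all genes. The call of Anxa1 ended without severe line replicate 5 (0.24, limma adjusted p = 0.0669) and without mild line replicate 1, 2 or 3, and that of S100a4 without mild line replicate 1 (limma adjusted p = 0.0549). Without the arrays of high lung markers 6 members passed, all of these but S100a4 (0.38, limma adjusted p = 0.079). The dimmer Anxa2 probe gave 0.04 (limma adjusted p over all probes = 0.928). With raw log2 values scaled to a common median Anxa1, Anxa5 and S100a10 did not pass. In the set of higher background 2 members passed, and in that of lower background 3. Of 9 macrophage and myeloid markers tested 6 were higher in the severe than in the mild line, with a median of 0.61. So were 3 of 11 fibroblast markers, against 5.94% of all genes. The part of these cells in the differences between the lines was not tested.

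At 3 weeks, Anxa3 in the severe line read 10.91, 10.05 and 10.51, against 9.86, 9.92, 10.01 and 9.71 in wild type and 10.02, 10 and 10.31 in the mild line. S100a10 read 9.86, 9.76 and 9.74 in the severe line, 9.64, 9.73 and 9.55 in the mild line and 9.38, 9.39, 9.17 and 9.39 in wild type. For both, every severe line array lay above every wild type array. The differences of the severe line from wild type were 0.61 for Anxa3 (SE 0.16, limma adjusted p = 0.0277) and 0.46 for S100a10 (SE 0.13, limma adjusted p = 0.0447), 2 of 10 members against 2.66% of all genes. On the second Anxa3 probe the difference was 0.45 and did not pass (limma adjusted p over all probes = 0.184). There the severe line, at 9.58 to 10.26, overlapped wild type, at 9.29 to 9.67. The call of S100a10 was lost on leaving out any 1 of the 7 arrays (limma adjusted p 0.0639 to 0.194), and that of Anxa3 on leaving out wild type replicate 1 or 4 or severe line replicate 1 or 3 (limma adjusted p up to 0.265). Without the arrays of high lung markers, of which wild type replicate 3 belongs to this comparison, Anxa3 passed (0.66, limma adjusted p = 0.0467) and S100a10 did not (0.4, limma adjusted p = 0.149). Within the set of higher background, with 2 arrays per group, and against wild type mice of the same line alone, 0 members passed. The set of lower background held 1 severe line array at 3 weeks, too few for a call.

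Another 3 members had differences at 3 weeks that did not pass, 0.49 for Anxa2 (limma adjusted p = 0.0565), 0.59 for Anxa5 (limma adjusted p = 0.0671) and 0.68 for S100a11 (limma adjusted p = 0.103). Anxa2 read 13.06, 12.62 and 13.15 in the severe line against 12.39, 12.42, 12.59 and 12.39 in wild type. Its dimmer probe gave a difference of 0.21 (limma adjusted p over all probes = 0.739). For Anxa5 the severe line read 11.44, 10.37 and 11.17 against 10.54, 10.52, 10.18 and 10.38 in wild type. For S100a11 it read 11.46, 10.47 and 11.08 against 10.47, 10.13, 10.3 and 10.4. In each case severe line replicate 2 was the lowest of its group, for Anxa5 it lay among the wild type arrays, and for S100a11 it equalled the highest of them to 2 decimals. Without it 4 members passed, Anxa2 (0.65), Anxa3 (0.83), Anxa5 (0.9) and S100a11 (0.95), and S100a10 did not (limma adjusted p = 0.0639). Without severe line replicate 5 of 24 weeks, which enters these tests only through the shared spread, 4 members passed too. These were Anxa2, Anxa3, Anxa5 and S100a10. The shares of all genes called without either array are not given here, so these counts cannot be read as particular to the members. All severe line arrays lay above wild type for 4 members, Anxa2, Anxa3, S100a10 and S100a11, as for 8.54% of all genes, and the median difference of the 10 members was 0.3 beside 0 for all genes.

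In the mild line at 3 weeks 0 members passed, against 1.07% of all genes that were higher. The nearest was S100a10, with 0.31 (95% interval 0.04 to 0.58, limma adjusted p = 0.331), and it was the 1 member for which all mild line arrays lay above wild type, as for 7.58% of all genes. Between the severe and the mild line 0 members passed at 3 weeks, against 0.450% of all genes that were higher in the severe line. The widest gaps were those of S100a11, at 0.42 (95% interval -0.1 to 0.93), and Anxa3, at 0.38 (95% interval 0.02 to 0.74).

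Between wild type hearts of 24 and 3 weeks 0 members passed, against 2.57% of all genes changed in either direction. For Anxa2 all 4 arrays of 24 weeks, at 11.83 to 12.17, lay below those of 3 weeks, at 12.39 to 12.59, as for 5.25% of all genes. The difference of -0.38 (95% interval -0.66 to -0.09) had a limma adjusted p of 0.188, and of 0.0295 where severe line replicate 5 of 24 weeks was left out of the estimate of the spread. The dimmer Anxa2 probe had a difference of 0 there. S100a1 differed by 0.45 (95% interval -0.09 to 0.99), upward in the older hearts.

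Whether a difference from wild type changed between 3 and 24 weeks was tested as a contrast of its own. In the mild line 0 members passed, against 0.0666% of all genes. The estimate for S100a10 was -0.42 (95% interval -0.78 to -0.06). In the severe line 0 members passed, against 0.683%, with 0.83 for Anxa3 (95% interval 0.38 to 1.27, limma adjusted p = 0.0773). The gap between the severe and the mild line was wider at 24 than at 3 weeks for 1 member, Anxa3, by 1.06 (SE 0.22, 95% interval 0.6 to 1.51, limma adjusted p = 0.0261), against 0.366% of all genes changed in either direction. This call ended on leaving out any of 7 of the 16 arrays (limma adjusted p up to 0.123), and the set of higher background alone did not give it (0.98). In the set of lower background, with 1 array of each line at 3 weeks, the estimate was 1.22, with too few arrays for a call. Without the arrays of high lung markers the gap was wider by 1.12 (limma adjusted p = 0.0452). On the second Anxa3 probe it was wider by 1.13 (limma adjusted p over all probes = 0.0315). For S100a11 the same contrast gave 0.71 (95% interval 0.06 to 1.36) and did not pass.

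Of the other annexins, Anxa4, Anxa7, Anxa9 and Anxa11 were tested and Anxa8, Anxa10 and Anxa13 were each detected on fewer than 3. Anxa4, an annexin best known from epithelia, was higher in the severe line at 24 weeks by 0.44 (SE 0.08, limma adjusted p = 3.16e-04), with values of 7.69 to 7.96 against 7.28 to 7.48 in wild type. The groups did not overlap. These values are those of the brightest of 3 kept Anxa4 probes, and the others are not given here. Anxa7, Anxa9 and Anxa11 had differences of 0.03 to 0.08.

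Of 11 other S100 genes, 5 were tested and 0 passed in any comparison, S100z among them. The widest difference in the severe line at 24 weeks was that of S100a13, which takes part in the release of fibroblast growth factor 1, at 0.84 (SE 0.33, limma adjusted p = 0.0989), with 9.35 to 11.04 in the severe line and 8.84 to 10.02 in wild type. S100a8 and S100a9, the abundant S100 proteins of neutrophils, had differences of -0.04 and 0.1. The 5 S100 members lie with the other 4 on chromosome 3, in the order S100a1, S100a13, S100a16, S100a4, S100a6, S100a8, S100a9, S100a11 and S100a10 among those tested. In this order S100a11 and S100a10 stand next to each other, with differences of 1.03 and 0.31 in the severe line, and so do S100a1 and S100a13, with 0.1 and 0.84.

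**Figure D4:**
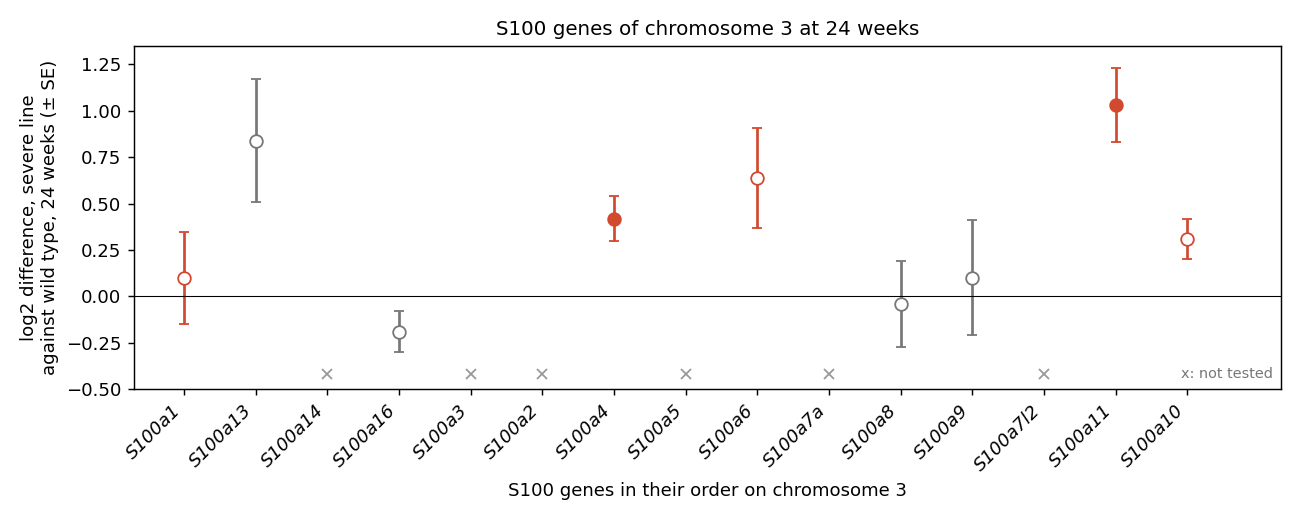
Log2 difference of the severe line from wild type at 24 weeks (vertical axis) for the S100 genes in their order along chromosome 3 (horizontal axis, not to scale); points are limma estimates with 1 SE on each side, red for members and grey for other S100 genes, filled where the adjusted p was under 0.05, and crosses mark genes that were not tested. S100a4 (0.42) and S100a11 (1.03) are the filled points, with open points between 0.84 and -0.19 beside them.

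The next list held 15 tested genes of membrane repair and known partners of annexins and S100 proteins. Of these 0 were higher and 1 lower in the severe line at 24 weeks, with a median difference of 0.06. Of all genes 8.26% were higher there, and those lower are counted with the members above. The transcript that fell was Cav3, the caveolin of muscle, by 0.65 (SE 0.18, limma adjusted p = 0.0136), with 7.11 to 8.17 in the severe line and 8.06 to 8.76 in wild type. Against the mild line Cav3 fell by 0.51 (limma adjusted p = 0.0491) and Plat, the tissue plasminogen activator, whose activity the Anxa2 complex with S100a10 enhances, was higher by 0.52 (limma adjusted p = 0.0222), at 7.64 to 8.63 against 7.21 to 7.57. Dysf, or dysferlin, a membrane repair protein, fell by 0.5 in wild type hearts from 3 to 24 weeks (limma adjusted p = 0.0128).

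The genes named in the next sentences were chosen after their values were seen. Of 4 tested receptors, Tlr4, a receptor of innate immunity to which several S100 proteins bind, was higher in the severe line at 3 weeks by 1.18 (limma adjusted p = 3.67e-05) and at 24 weeks by 0.54 (limma adjusted p = 0.00609), and in the mild line at 3 weeks by 0.7 (limma adjusted p = 0.00934). At 3 weeks it read 7.12 to 7.62 in wild type, and neither the mild line (8.03 to 8.3) nor the severe line (8.14 to 8.88) overlapped it. In the severe line at 24 weeks, where 8.26% of all genes were higher, 11 EF-hand and calcium-buffering genes of muscle were tested. Of these 1 was higher and 1 lower, with a median of -0.09. These were Pvalb, or parvalbumin, with a difference of 1.9, and Hrc, a histidine-rich calcium-binding protein of the sarcoplasmic reticulum, with -0.68.

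Some markers of fibroblasts, macrophages and smooth muscle were higher in the severe line at 24 weeks, where 8.26% of all genes were higher. Of 11 fibroblast markers 5 were higher (Col1a1, Col3a1, Col1a2, Dcn and Tcf21), with a median difference of 0.45. The summed intensity of all 11 was 15743 to 24009 against 12238 to 15699 in wild type and 14416 to 15638 in the mild line, so the severe line arrays lay above both. Of 9 tested macrophage and myeloid markers 3 were higher (Lgals3, Adgre1 and C1qc), and the sum of all 9 was 4611 to 7890 against 3402 to 4272 in wild type. Of 4 tested smooth muscle markers 2 were higher, Acta2 and Tagln, and the sum of all 4 was 13205 to 30813 against 8213 to 11926. Of 9 endothelial markers 1 was higher, with a median of 0, of 9 cardiomyocyte markers 1 was higher and 1 lower, with a median of -0.02, and of 3 neutrophil markers tested 0 passed. Of 5 atrial muscle markers Myl7 was lower, and 0 passed among the mesothelial, lymphocyte, fat, Schwann cell and erythroid markers tested. The lung markers did not pass either, with sums of 187 to 4006 (median 192) in the severe line and 169 to 195 in wild type, the highest being that of severe line replicate 4. Cd68 and Itgam of the myeloid list and Ly6g, Camp, Ngp and Retnlg of the neutrophil list were not among the genes tested. The part of these cells in the differences of the members was not tested.

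At 3 weeks in the severe line, where 2.66% of all genes were higher, the same lists held 3 calls. The number of all genes that were lower there is given with the processing below. Of the fibroblast markers Col1a2 was higher, of the smooth muscle markers Tagln, and of the macrophage and myeloid markers none was higher and Adgre1 was lower. The fibroblast sum was 17289 to 21504 in the severe line (median 18457) and 13956 to 17663 in wild type (median 15552). The smooth muscle sum was 17994 to 31381 (median 25122) against 12986 to 20873 (median 14757.5), and the macrophage and myeloid sum 2960 to 4077 (median 3459) against 3509 to 4230 (median 3799). The ranges of all 3 lists overlapped, with the first and second higher in the severe line by their medians. The part of these cells in the differences at 3 weeks was not tested.

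Across the 24 arrays, the transcripts most like Anxa2 were Col18a1 (Pearson r 0.93), Ptms (0.92), Cavin3 (0.92), Nes (0.92) and Lhfpl2 (0.91). Those most like S100a1 were Cyb5a, Tom1, Ncoa4, Pigp and Hnrnpa2b1, each at 0.86. These correlations describe arrays that share groups and normalization, and no p is given. Among the members themselves, S100a11 followed Anxa3 and Anxa5 with r of 0.88 each over all arrays, and with 0.61 and 0.78 after group means were removed. S100a4 and S100a6 had 0.73 and 0.74. Anxa2 and S100a10, which form a complex as proteins, had 0.72 over all arrays and 0.14 within groups, and Anxa1 and S100a11 had 0.62 and 0.37.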

How the data were processed

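Total RNA of 24 hearts was measured on Illumina MouseWG-6 v2 arrays, 1 array for each mouse, and replicates were separate mice. The authors deposited log2 values after quantile normalization of all arrays, the raw intensity of each probe and a detection p-value, and the values of the 2 deposited tables were identical. The sources used here do not name the scanner or the software that normalized the values. The deposited log2 values (5.82 to 15.16) differed from quantile-normalized raw intensities by 0.19 at most, and they hold no background subtraction, so changes of dim transcripts are understated. The number of arrays limits the precision.

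A probe was kept where its detection p-value was under 0.05 on at least 3 of 24 arrays, which left 22663 of 45281 probes, 18907 of them with a gene symbol. Of all probes 34885 had 1 symbol, 18 several and 10378 none. The brightest kept probe stood for a gene (12011 genes), and the other probes of the members were fitted apart. The 6 groups were fitted together with limma 3.58.1 (lmFit and eBayes) in R 4.3.3, and p-values were adjusted by Benjamini-Hochberg. A further call rule asked for a 2-fold change and, besides, a raw p under 0.001 or an adjusted p under 0.05. Fits with other filters, probe summaries, normalizations, control mice, weights and blocks, and without each array, were made as alternatives, and so was a fit without 3 arrays whose lung markers stood apart, chosen after the data were seen. Scripts were tested on simulated data. All 10 members are described whatever their values. From the lists of other annexins, other S100 genes and membrane repair the genes that passed are named, and for Anxa2 and S100a1 the 5 genes most like them. Ptrf was looked up as Cavin1. Promoters are from RefSeq (GRCm38.p6), and a match was an exact search of both strands. The members and lists were chosen with earlier results of these data known. Another 48 columns of values, counted over all samples, were not used. The level of the transgene was not analysed here.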

Additional observations from a re-analysis of the deposited data

Results flagged for a closer look

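In 7 of 40 groups of 4 or 5 arrays, a single array lay far from the others of its group for a member (Dixon's criterion), which chance gives in about 1 in 20 groups. In severe line replicate 5 at 24 weeks Anxa1 read 7.64, with the others at 7.03 to 7.2, and Anxa2 read 12.18, with the others at 12.77 to 13. The same array had the lowest mean correlation with its group, at 0.9555. Among wild type hearts of 24 weeks, Anxa2 read 11.83 in replicate 3, with the others at 12.13 to 12.17, and S100a11 read 10.84 in replicate 2, with the others at 10.1 to 10.14. Among wild type hearts of 3 weeks, Anxa2 read 12.59 in replicate 3 (others 12.39 to 12.42), S100a10 read 9.17 in the same replicate (others 9.38 to 9.39), whose summed lung markers were 5905 against 187 to 425 in the rest of its group, and S100a6 read 10.16 in replicate 4 (others 9.44 to 9.53). The gap between the severe and the mild line was wider at 24 than at 3 weeks for Anxa3, by 1.06 on the log2 scale (limma adjusted p = 0.0261), a difference between ages that was tested as a contrast of its own.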

How the results depend on the processing

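In the severe line at 24 weeks, Anxa3 passed under all 17 alternatives (1.24 to 1.62 on the log2 scale). It also passed with any array of the groups compared left out (1.34 to 1.51), and no count of called members changed direction. The counts below stand without the share of all genes called under each setting unless it is given. The 5 calls of the severe line against wild type at 24 weeks became 2 within the arrays of higher background and 3 within those of lower background, and the 7 against the mild line became 2, 3 and, with raw log2 values scaled to a common median, 4. The 2 calls of the severe line at 3 weeks were the least stable. They became 1 without the detection filter, with probes averaged or fitted singly, with background-corrected values (neqc) and with scaling to a common median. The count was also 1 with a block for the background set, with a trended, robust variance and without the 3 arrays of high lung markers (a setting chosen after the data were seen). It was 0 with wild type mice of the same line and within the set of higher background, and 5 with array weights. The 1 call of the gap between the lines at 24 against 3 weeks became 0 with scaling to a common median. It became 0 too with only the groups compared and within the set of higher background. The set of lower background, with 1 array of each line at 3 weeks, was too small for a call of this gap. Scaling to a common median moved the median of all genes by 0.11 for the severe line at 3 weeks, against either control, and by 0.108 against the mild line at 24 weeks, and it turned the split of higher and lower genes from 320 and 235 to 241 and 11 for the severe line against wild type at 3 weeks and from 714 and 640 to 803 and 49 against the mild line at 24 weeks. The causes were not tested, other than that fits within a background set hold 12 arrays. In the lower set these include 1 array of each line at 3 weeks.

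Each array of the groups compared was left out in turn. The count of called members ranged from 4 to 6 for the severe line against wild type at 24 weeks. It ranged from 5 to 7 against the mild line at 24 weeks and from 0 to 4 for the severe line at 3 weeks. The range was 0 to 1 for the severe against the mild line at 3 weeks and for the severe line difference at 24 against 3 weeks. It was also 0 to 1 for the gap between the lines at 24 against 3 weeks. The count stayed at 0 for the mild line at both ages, for its change with age and for wild type age. Leaving out severe line replicate 5 of 24 weeks, an array outside the wild type groups, gave 1 call for wild type age, Anxa2.

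Deviations from group means correlated at 0.085 on average over 60 pairs of arrays with the same replicate number in the labels (-0.32 to 0.57). Over 178 other pairs the average was -0.028 (-0.56 to 0.7). The ranges overlap, so these correlations cannot decide whether the replicate numbers pair the samples. With the replicate block 1 member, Anxa3, passed for the severe line difference at 24 against 3 weeks, where 0 passed without it, and S100a4 no longer passed in the severe line at 24 weeks (0.31, limma adjusted p = 0.116). Runs of 6 arrays in the order of the sample titles as a block also gave 1. Background on the arrays limits Anxa1 and S100a4, detected on 21 and 19 of 24 arrays.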
